A study of Mus musculus with 36 samples.

Results

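The urea cycle genes examined here were the 5 enzymes of the cycle (Cps1, Otc, Ass1, Asl and Arg1), the synthase of its activator (Nags), a pair of mitochondrial carriers (Slc25a13 and Slc25a15) and liver-type glutaminase (Gls2). They were chosen by name for their known roles, by a rule that uses no measured value but was set with earlier results of these data known, and made up 9 of the 21889 gene symbols in the table. All 9 were among the 11149 genes tested, those whose mean reached 1 FPKM at some age. FPKM is the number of sequenced fragments divided by transcript length and by library size, so levels of different genes can be set side by side.

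The mRNA was sequenced from livers of 36 male C57BL/6 mice (the substrain C57BL/6J per the study's methods), 3 at each of 12 ages, with no genetic change or treatment in any group. The ages were GD17.5 (late gestation, labelled as day -2), Day 0 (at birth, before any milk), Day 1 (1 full day after birth), Day 3, Day 5, Day 10, Day 15, Day 20, Day 25, Day 30, Day 45 and Day 60. Mice of the older ages were weaned onto standard chow at 21 days, so Days 1 to 20 were suckling ages and Days 25 to 60 followed weaning. The 3 mice of an age were separate animals picked at random from several litters, and they are named below by age and replicate number. Mice of Day 3 and older were killed at 9 in the morning whereas Day 0 and Day 1 were timed from birth, so the hour of collection and the age cannot be told apart at those 2 ages.

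The urea cycle turns ammonia, which is toxic to the brain, into urea, and the complete cycle runs mainly in hepatocytes. It starts in the mitochondrion, where carbamoyl phosphate is made from ammonia and bicarbonate and joined to ornithine, and it ends in the cytosol, where arginine is split into urea and ornithine. In the liver lobule the cycle and glutaminase are found in periportal hepatocytes, while glutamine synthetase is held by a thin layer of cells around the central vein. Deficiency of most of these enzymes and carriers causes hyperammonemia or citrullinemia in infants.

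In the genome build of the study (NCBI37/mm9), the GENCODE M1 annotation placed the 9 genes on separate loci, all protein-coding. Cps1 lay at chr1:67169600-67277833, Otc at chrX:9829431-9898150, Ass1 at chr2:31325727-31376192, Asl at chr5:130487128-130501002 and Arg1 at chr10:24635014-24647276. Nags lay at chr11:102006827-102010791, Slc25a13 at chr6:5991219-6167173, Slc25a15 at chr8:23486026-23509093 and Gls2 at chr10:127631513-127647060.

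A search of the genome with each coding sequence, for alignments of at least 150 bases and 85% identity outside the gene itself, found a copy for 1 of the 9 genes. Ass1, the argininosuccinate synthase that joins citrulline to aspartate, had a copy at chr10:61533871-61535109 (plus strand), annotated as the pseudogene Gm5424 with 1 exon and no intron. The copy aligned to all 1239 coding bases of Ass1 without a gap and differed from them at 6 bases (99.5% identity). Of the 1140 windows of 100 bases, the read length of the study, 622 (54.6%) were identical in Ass1 and Gm5424. The stretch below shows how alike they are. It covers coding bases 351 to 450 of Ass1, counted from 1 at the start codon, with the copy at chr10:61534221-61534320 of mm9, and the differing bases are in capitals (T399C and T429C, with the base of Ass1 first). The sequences were read from the GENCODE M1 transcripts and the mm9 genome.
Ass1: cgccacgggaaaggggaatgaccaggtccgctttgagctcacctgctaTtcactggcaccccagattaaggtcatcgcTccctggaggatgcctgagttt
Gm5424: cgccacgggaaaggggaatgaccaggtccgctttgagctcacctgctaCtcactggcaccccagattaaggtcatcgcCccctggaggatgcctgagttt

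Gm5424 was listed at far higher FPKM than Ass1 in every mouse. At Day 60 the 3 mice had 62.6, 76.4 and 132 FPKM of Ass1 and 1864, 2075 and 3565 FPKM of Gm5424. The ratio of Gm5424 to Ass1 ran from 16.4 to 35.1 over the 36 mice, with a median of 30. How the authors' mapping divided reads between the copies was not given in the sources used here, so the level of Ass1 is uncertain and the sum of Ass1 and Gm5424 is given beside it. That sum is approximate because the lengths of the gene models differ. It was 276 ± 39.7 FPKM in fetuses of GD17.5 against 2591 ± 964 FPKM in mice of Day 60 (SD, n = 3 mice). On the listed values Ass1 was below Cps1, Asl and Arg1 at every age, whereas the summed value was above all 3 at every age.

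**Figure D1:**
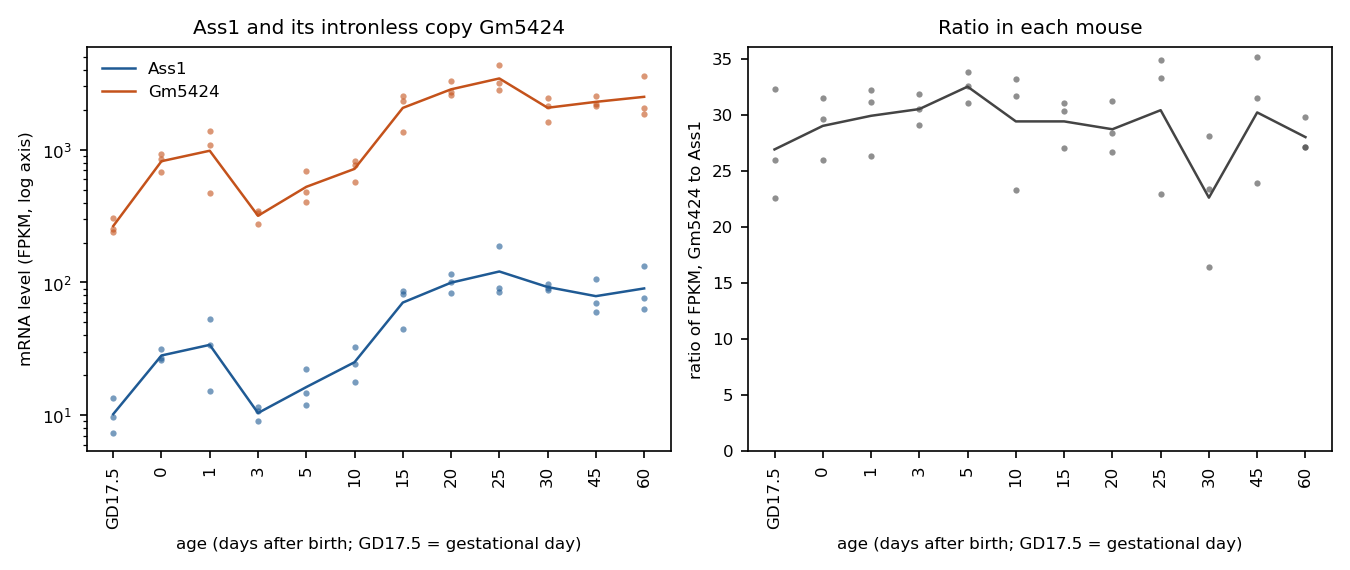
mRNA levels of Ass1 and of its intronless copy Gm5424 (left, FPKM on a log axis) and the ratio of the pair in each mouse (right, linear axis from 0), against age; points are the 3 mice of an age and lines their mean. Both genes follow the same course and the ratio stays between 16.4 and 35.1 in all 36 mice.

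The livers carried hepatocyte markers at every age and blood cell markers mostly at the early ages. The summed FPKM of 5 hepatocyte markers (Alb, Ttr, Apoa2, Ahsg and Serpina1b) was 10283 to 10998 in the fetuses, 52662 to 65860 on Days 0 and 1, 98046 to 110431 on Day 15 and 49616 to 58990 on Day 60. The summed FPKM of 8 erythroid markers fell from a range of 127286 to 185236 at GD17.5 to 4158 to 18679 on Day 10 and 650 to 715 on Day 60, and the part of these cells in the results below was not tested. In bulk liver, fewer hepatocytes and less of an mRNA per hepatocyte cannot be told apart. Some libraries held RNA of other organs. Kidney markers summed to 54.4 FPKM in Day 1 replicate 2 and 2.58 in Day 1 replicate 3 and to at most 0.137 elsewhere, skeletal muscle markers to 991 FPKM in Day 0 replicate 1, and pancreas markers to 4351 to 19740 FPKM in 5 libraries (Day 0 replicate 3, Day 15 replicate 3, Day 20 replicate 2, Day 45 replicate 1 and Day 60 replicate 1). Values without these libraries are given for GD17.5 against Day 60 and for the steps at birth, to Day 1 and from Day 10 to Day 15. The 5 are called the libraries with pancreas RNA below, but leaving them out did not remove all pancreas RNA. Its markers still summed to 881 and 521 FPKM in Day 0 replicates 1 and 2, against 6.99 to 7.54 in the fetuses. They summed to 1162 FPKM in Day 10 replicate 1 and to 466 and 450 FPKM in Day 15 replicates 1 and 2.

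All 9 genes differed from Day 60 in at least 1 age (limma on log2(FPKM + 1), Benjamini-Hochberg over all genes and ages), against 90.7% of all genes tested. Over the 11 earlier ages, 47 of the 99 gene and age pairs passed the test, against 39.6% of pairs over all genes. All 47 lay between GD17.5 and Day 10. Between neighbouring ages, 24 of 99 gene and step pairs passed, against 14.6% over all genes. Otc had its lowest mean at Day 0 and Slc25a13 its highest at Day 1, while each of the other genes was lowest at GD17.5 and highest at Day 20 or later. With the ages of a gene put in order of their means, the mice of neighbouring ages in that order overlapped in all 11 neighbouring pairs for Nags and Slc25a15, in 10 for Cps1, Ass1, Asl, Arg1 and Slc25a13, and in 7 for Otc and Gls2.

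**Figure D2:**
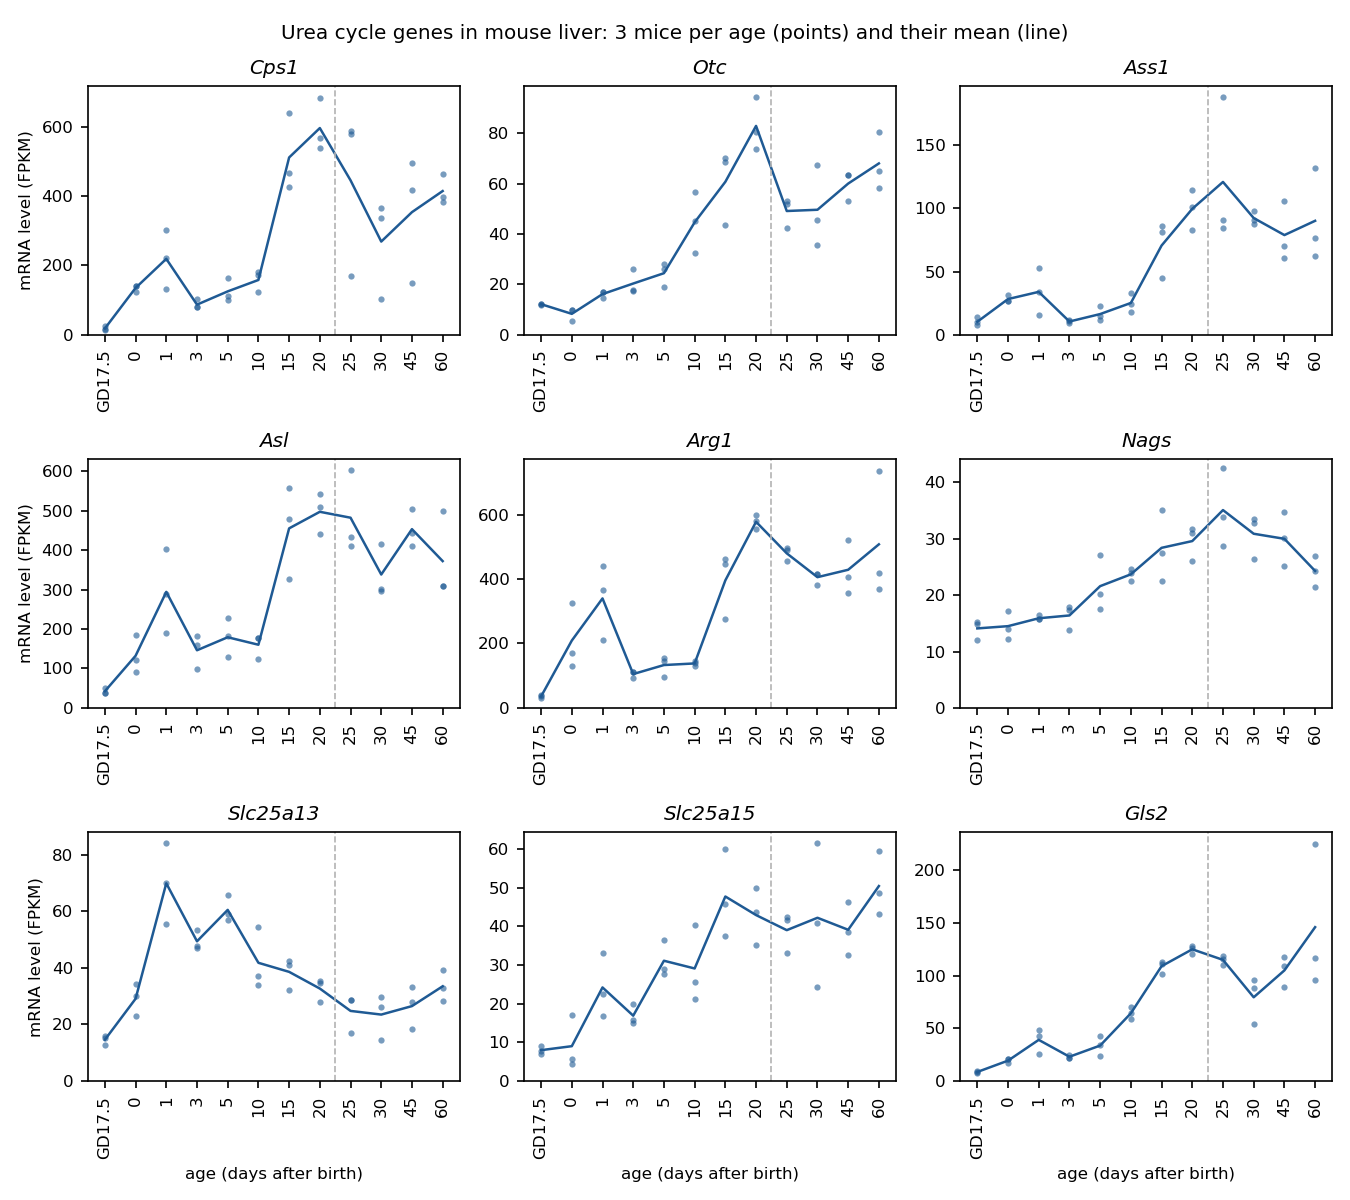
mRNA level (FPKM, linear axes from 0, a scale for each panel) of the 9 genes against age; points are the 3 mice of an age, lines join their means, and the dashed line marks weaning between Days 20 and 25. Cps1, Ass1, Asl and Arg1 rise at birth, dip on Day 3 and climb again by Day 15, Otc and Nags climb from Day 0 to Days 20 and 25, and Slc25a13 peaks at a mean of 69.9 FPKM on Day 1.

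Fetal liver held little mRNA of the mitochondrial steps. Cps1 encodes carbamoyl phosphate synthetase 1, the entry step of the cycle. Its level was 23.6, 13.6 and 16.1 FPKM in the 3 fetuses at GD17.5 and 399, 384 and 463 FPKM in the 3 mice at Day 60. The groups did not overlap, and Cps1 was 22.6-fold lower at GD17.5 (log2 fold change -4.50, SE 0.43, limma adjusted p = 2.11e-10). Otc, ornithine transcarbamylase, the X-linked enzyme that makes citrulline, had 11.8, 12.3 and 12.2 FPKM at GD17.5 and 65.1, 80.5 and 58.3 FPKM at Day 60, a 5.21-fold difference (adjusted p = 2.69e-10). Nags makes N-acetylglutamate, the activator without which Cps1 protein is inactive, and it differed least of the 9 genes. Its level was 12.1, 14.9 and 15.2 FPKM at GD17.5 and 21.5, 24.3 and 27 FPKM at Day 60, which did not overlap (1.68-fold, adjusted p = 0.000284).

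The cytosolic enzymes were also low in the fetus. Arg1, the arginase that releases urea, had 29.5, 35.5 and 41.5 FPKM at GD17.5 against 369, 418 and 737 FPKM at Day 60 (13.4-fold lower, adjusted p = 7.62e-13). Asl, the lyase that splits argininosuccinate into arginine and fumarate, had 36.7, 50.8 and 38.9 FPKM in the fetuses against 309, 309 and 498 FPKM at Day 60 (8.51-fold lower, adjusted p = 8.4e-11). Ass1, with 7.39, 13.6 and 9.67 FPKM in the fetuses, was 7.93-fold lower (adjusted p = 1.28e-08), or 9.03-fold with Gm5424 added (adjusted p = 1.13e-10). In each of these genes all 3 fetuses lay below all 3 mice of Day 60.

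The carriers and glutaminase differed in size of change. Slc25a15, the ornithine carrier of the mitochondrial membrane, had 9.12, 7.09 and 7.77 FPKM in the fetuses and was 5.69-fold lower at GD17.5 than at Day 60 (adjusted p = 6.96e-08), and Slc25a13, citrin, which exports mitochondrial aspartate for the Ass1 reaction, had 15.9, 12.9 and 15.1 FPKM and was 2.2-fold lower (adjusted p = 9.72e-05). Gls2 releases ammonia from glutamine in the mitochondria that hold Cps1. It went from 7.94, 8.23 and 9.76 FPKM at GD17.5 to 96.1, 117 and 225 FPKM at Day 60, a 14.3-fold difference (adjusted p = 1.5e-14). In all, 9 of the 9 genes were lower at GD17.5 than at Day 60, against 18.6% of all genes tested. Their median log2 fold change was -2.99, while that of all genes was 0.56. After the libraries were scaled to a common upper quartile the median of all genes was 0.14, and 9 of the 9 genes were lower as well. Shares of all genes, here and below, are of the unscaled values, so counts after this scaling cannot be set against them. Without the 5 libraries with pancreas RNA, which include Day 60 replicate 1, 9 were lower too, from -4.53 (Cps1) and -4.09 (Gls2) to -0.83 (Nags) on the log2 scale.

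At birth, before suckling, most of the cycle rose. Between GD17.5 and Day 0, 6 of the 9 genes rose, against 13.1% of all genes, and 1 fell, against 41.4%. Their median log2 fold change was 1.08 and that of all genes -0.29 (1.31 and -0.08 after upper quartile scaling). Cps1 rose most, to 124, 141 and 140 FPKM, every newborn well above every fetus (7.41-fold, SE 0.43 on the log2 scale, adjusted p = 3.82e-06). Arg1 reached 326, 171 and 129 FPKM and rose 5.37-fold (adjusted p = 5.29e-08). The newborn highest in Arg1, Asl and Slc25a15 was Day 0 replicate 1, the library with skeletal muscle RNA, whose part in those values was not tested. Without it and Day 1 replicate 2 the rise of Arg1 was 2.05 on the log2 scale (2.42 with them) and that of Asl 1.30 (1.58), and the number of genes that changed at birth was 7 either way. Without the libraries with most pancreas RNA, which include Day 0 replicate 3, the rises were 2.86 for Cps1 and 2.71 for Arg1. Then 6 genes changed.

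Asl (185, 89.8 and 122 FPKM at Day 0), Ass1 (31.4, 26.3 and 26.8 FPKM), Gls2 (20.7, 16.8 and 20.6 FPKM) and Slc25a13 (30.1, 34.2 and 22.9 FPKM) rose by 2.99-fold, 2.66-fold, 2.11-fold and 1.91-fold, with adjusted p of 4.63e-05, 0.00158, 0.000495 and 0.00179. None of the 3 newborns overlapped the fetuses in any of these genes. Ass1 with Gm5424 added rose 3.06-fold (adjusted p = 5.93e-05). On the log2 scale Ass1, Gls2 and Slc25a13 rose by 1.41, 1.08 and 0.93, by 1.33, 1.03 and 0.90 without the libraries with kidney or muscle RNA, and by 1.44, 1.03 and 1.09 without those with pancreas RNA.

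Otc moved the other way from Cps1, its partner in the mitochondrion. It was 9.69, 9.85 and 5.25 FPKM at Day 0, below all 3 fetuses (log2 fold change -0.55, SE 0.23, adjusted p = 0.0481). This small fall was not stable. It was -0.29 (adjusted p = 0.29) after upper quartile scaling. Without Day 0 replicate 3, the lowest newborn and the one with most pancreas RNA, it was -0.28 (adjusted p = 0.336). The call was also lost when any 1 fetus was left out (-0.56 to -0.54, adjusted p 0.0847 to 0.0938). Nags and Slc25a15 did not pass the test at birth (log2 fold changes of 0.04 and -0.05, SE 0.17 and 0.33). For Slc25a15 the newborns were spread from 4.37 to 17 FPKM, on both sides of the fetuses.

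**Figure D3:**
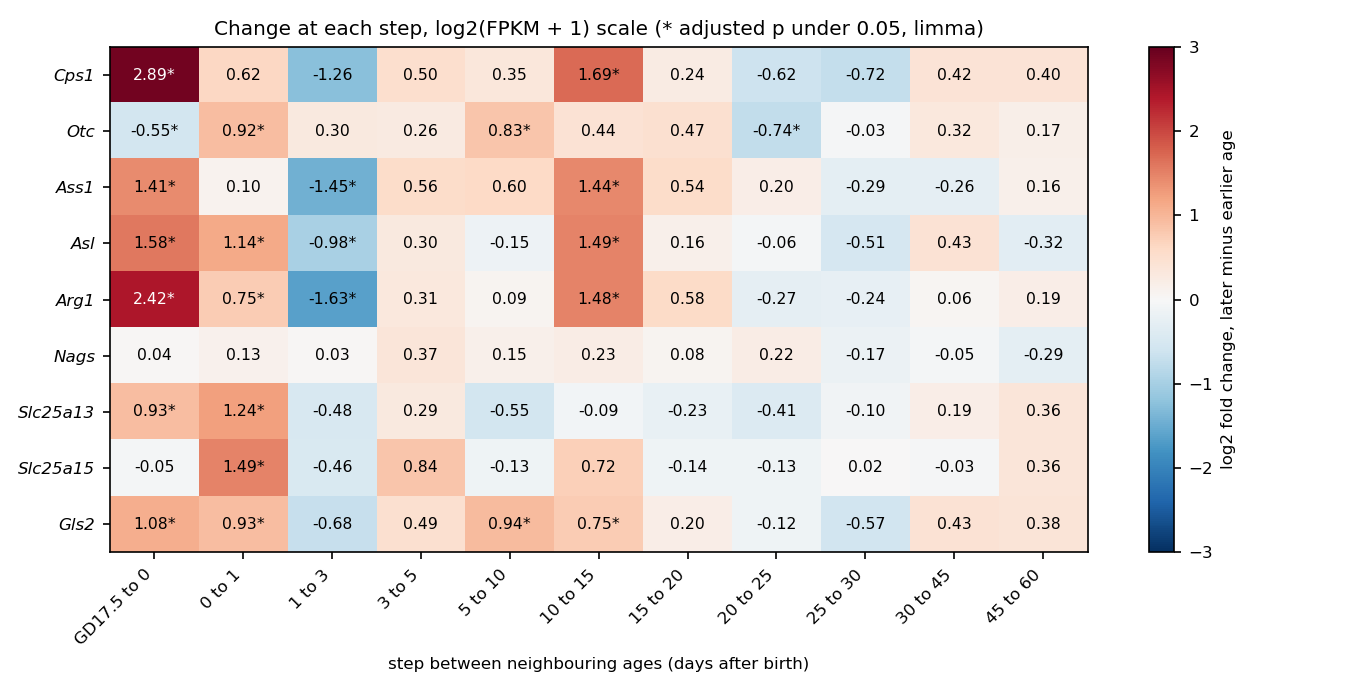
Log2 fold change, on the log2(FPKM + 1) scale, of each of the 9 genes at each of the 11 steps between neighbouring ages (later minus earlier; red higher, blue lower); an asterisk marks an adjusted p under 0.05 by limma. The marked cells lie mainly in the steps from GD17.5 to Day 0, Day 0 to Day 1, Day 1 to Day 3 and Day 10 to Day 15, and no step after Day 25 has one.

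The unequal changes at birth showed in the ratio of Cps1 to Otc. It was 1.99, 1.11 and 1.31 in the 3 fetuses, 12.8, 14.3 and 26.7 in the 3 newborns and 17.9, 7.89 and 15.2 at Day 1. From Day 3 on, its age means lay between 3.75 (Day 10) and 8.77 (Day 25), and at Day 60 it was 6.28 ± 1.59 (SD, n = 3). The newborns thus had more Cps1 mRNA per Otc mRNA than the mice of any later age from Day 3 on, in which the highest single value was 11.2. These ratios are given as values without a test.

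On the first day of suckling the carriers rose. Between Day 0 and Day 1, 6 of the 9 genes rose, against 23.7% of all genes, and none fell, against 7.88%; after upper quartile scaling 5 rose. Slc25a15 went from 17, 5.7 and 4.37 FPKM to 33.1, 16.9 and 22.6 FPKM (2.82-fold, SE 0.33 on the log2 scale, adjusted p = 0.00104); Day 1 replicate 2 lay just under the highest newborn. Slc25a13 went to 84.3, 70.1 and 55.5 FPKM, above every newborn (2.36-fold, adjusted p = 0.000274). This was its highest mean of all ages, 69.9 ± 14.4 FPKM. The rise of Slc25a15 was 1.49 on the log2 scale, 2.24 without the libraries with kidney or muscle RNA (Day 0 replicate 1 and Day 1 replicate 2) and 1.15 without those with pancreas RNA (adjusted p = 0.0281), and that of Slc25a13 was 1.24, 1.26 and 1.08.

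Asl rose over the same day to 288, 190 and 403 FPKM (2.21-fold, adjusted p = 0.00347), with no overlap. Gls2 rose 1.9-fold (adjusted p = 0.00459) and Otc 1.89-fold (adjusted p = 0.00381), also without overlap. The call for Otc was lost without Day 0 replicate 3, which held pancreas RNA (log2 fold change 0.66, adjusted p = 0.0546). Arg1 reached 366, 211 and 442 FPKM, which overlapped the newborns, and its rise of 1.68-fold was a weak call (log2 fold change 0.75, adjusted p = 0.042). It was lost after upper quartile scaling (0.59, adjusted p = 0.133) and without any 1 of Day 0 replicate 2, Day 0 replicate 3, Day 1 replicate 1 or Day 1 replicate 3 (0.46 to 0.66, adjusted p 0.125 to 0.278). Without the libraries with kidney or muscle RNA the rise of Arg1 was larger, at 1.43 on the log2 scale (0.75 with them). That of Asl was 1.70 (1.14 with them). Cps1, Ass1 and Nags did not pass (log2 fold changes of 0.62, 0.10 and 0.13).

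The mice of Day 1 were spread widely. Day 1 replicate 2, the library with kidney RNA, was the lowest of the 3 mice in 7 of the 9 genes, with a median deviation of -0.55 from the age mean on the log2 scale over the 9 genes. Cps1 was 133 FPKM there against 302 and 221 in the other mice, and Ass1 was 15.2 FPKM against 33.7 and 52.9. The part of the kidney RNA in these values was not tested.

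By Day 3 the cytosolic enzymes had fallen back. Arg1 was 92.4, 110 and 111 FPKM, below all 3 mice of Day 1 (3.09-fold lower, log2 fold change -1.63, SE 0.28, adjusted p = 0.000202). Ass1 was 8.99, 10.8 and 11.5 FPKM, near its fetal level (2.74-fold lower than Day 1, adjusted p = 0.00685), and fell 2.82-fold with Gm5424 added (adjusted p = 0.00106). Asl was 98.4, 181 and 160 FPKM (1.97-fold lower, adjusted p = 0.0236). These 3 of the 9 genes fell, against 3.09% of all genes, and none rose, against 8.22%. Asl lost its call without Day 1 replicate 1 (-0.96, adjusted p = 0.0664), Day 1 replicate 3 (-0.72, adjusted p = 0.191) or Day 3 replicate 1 (-0.72, adjusted p = 0.137), and Ass1 lost it without Day 1 replicate 3 (-1.06, adjusted p = 0.086).

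Cps1 and Gls2 lay just outside the threshold at the same step. Cps1 was 102, 78.5 and 79.7 FPKM at Day 3, each below every mouse of Day 1 (log2 fold change -1.26, SE 0.43, adjusted p = 0.0593), and Gls2 was 22, 25.1 and 22.2 FPKM (-0.68, SE 0.24, adjusted p = 0.0645). Without Day 1 replicate 2, the mouse with kidney RNA, both passed (Cps1 -1.58, adjusted p = 0.0295; Gls2 -0.96, adjusted p = 0.0108). After upper quartile scaling both passed too (adjusted p of 0.0255 and 0.0209), which made 5 genes that fell. Gls2 also passed with the replicate number as a block (adjusted p = 0.0447). Otc, Nags and the carriers did not pass (log2 fold changes between -0.48 and 0.30). The summed FPKM of the 5 enzymes was 1007, 566 and 1133 at Day 1 and 328, 398 and 380 at Day 3.

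Between Days 3 and 5, limma called 0 of the 9 genes (either direction, 3.2% of all genes), although 2 had an unadjusted p under 0.05, Nags (0.0418) and Slc25a15 (0.0152). From Day 5 to Day 10, 34.4% of all genes fell while Otc and Gls2 rose, against 1.88% of all genes that rose; the median of all genes was -0.31, or 0.01 after upper quartile scaling. Otc went from 28.2, 19.1 and 26 FPKM to 56.5, 32.3 and 45.2 FPKM (1.77-fold, adjusted p = 0.00663) and Gls2 from 24.2, 34.2 and 42.9 FPKM to 58.5, 69.9 and 64.4 FPKM (1.92-fold, adjusted p = 0.003). The 2 ages did not overlap in either gene. After upper quartile scaling Nags rose as well (0.59, adjusted p = 0.019).

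Cps1, Ass1, Asl, Arg1 and Gls2 rose between Day 10 and Day 15, within the suckling period. They were 5 of the 9 genes, against 1.52% of all genes that rose, and none fell, against 10.5%. The median log2 fold change of the 9 genes was 0.75 and that of all genes -0.12. Cps1 went from 180, 173 and 122 FPKM to 427, 641 and 467 FPKM (3.22-fold, SE 0.43 on the log2 scale, adjusted p = 0.00911). Asl went from 124, 177 and 178 FPKM to 327, 479 and 558 FPKM (2.81-fold, adjusted p = 0.000545). Arg1 went from 129, 139 and 146 FPKM to 277, 463 and 448 FPKM (2.78-fold, adjusted p = 0.000462). In all 3 genes every mouse of Day 15 lay above every mouse of Day 10.

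Ass1 rose with them, from 17.9, 24.5 and 32.8 FPKM to 44.5, 86 and 81.4 FPKM (2.71-fold, adjusted p = 0.00631), and 2.81-fold with Gm5424 added (adjusted p = 0.000867). Gls2 rose 1.68-fold (adjusted p = 0.0377). The call for Gls2 was lost without any 1 of Day 10 replicates 1, 2 and 3 and Day 15 replicates 2 and 3 (0.69 to 0.81, adjusted p 0.0664 to 0.13), and without Day 15 replicate 2, the mouse highest in Cps1 and Ass1, those of Cps1 (1.51, adjusted p = 0.0677) and Ass1 (1.27, adjusted p = 0.0558) were lost too. Without the 5 libraries with pancreas RNA, which include Day 15 replicate 3, Ass1 (1.31, adjusted p = 0.0532) and Gls2 (0.72, adjusted p = 0.115) did not pass. Otc, Slc25a15, Nags and Slc25a13 did not pass (0.44, 0.72, 0.23 and -0.09). The summed FPKM of the 5 enzymes was 507, 547 and 523 at Day 10 and 1144, 1739 and 1598 at Day 15.

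From Day 15 on, limma called 0 of the 9 genes against Day 60 at each of Days 15, 20, 25, 30 and 45, ages at which 27.4%, 15.9%, 7.42%, 3.56% and 0.233% of all genes were called in either direction. The numbers with an unadjusted p under 0.05 were 0, 0, 1, 3 and 0, and Dunnett's comparison called 0, 0, 0, 1 and 0. With upper quartile scaling 1 gene, Nags, was called higher at Day 25 (0.60, adjusted p = 0.0228), as it was without Day 25 replicate 1 (0.63, adjusted p = 0.0384). Gls2 was called lower at Day 30 without any 1 of Day 30 replicates 2 and 3 and Day 60 replicate 1 (-1.06 to -0.90, adjusted p 0.0182 to 0.049). With all mice its difference was -0.81 (adjusted p = 0.0563), and it also passed with the pseudocount of 0.1 (0.0476), the filter at 5 FPKM (0.0442), the replicate block (0.0358), the length and GC trend removed (0.0268), and without the libraries with kidney or muscle RNA (0.0367) or with pancreas RNA (0.0393). Nags at Day 25 passed with TPM scaling (0.0121) and the replicate block (0.0135) too. The 5-enzyme sum was highest at Day 20, at 1905, 1803 and 1854 FPKM, and at Day 60 it was 1204, 1268 and 1887 FPKM, which overlapped it. With Gm5424 added it was highest at Day 25 (4818, 5774 and 4462 FPKM). No step between neighbouring ages from Day 15 on other than that from Day 20 to Day 25 had a call by limma (0 of 9 from Day 15 to Day 20, Day 25 to Day 30, Day 30 to Day 45 and Day 45 to Day 60, with 1, 1, 0 and 0 genes at an unadjusted p under 0.05), at steps in which 1.99%, 1.64%, 1.03% and 0.233% of all genes were called.

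Between Day 20 and Day 25, across weaning, Otc alone of the 9 genes passed the test. It went from 73.9, 94.3 and 80.6 FPKM to 53.1, 42.4 and 51.7 FPKM (1.68-fold, log2 fold change -0.74, SE 0.23, adjusted p = 0.0484), against 3.26% of all genes that fell. Every mouse of Day 25 lay below every mouse of Day 20, as was also so for Arg1 (489, 456 and 497 FPKM against 556, 598 and 579) and Gls2 (110, 116 and 119 FPKM against 126, 121 and 128), which did not pass (-0.27 and -0.12, adjusted p = 0.687 and 0.86). The call stood close to the threshold and was lost when any 1 of the 6 mice was left out (-0.82 to -0.65, adjusted p 0.0606 to 0.205). The other 8 genes changed by -0.62 (Cps1) to 0.22 (Nags) on the log2 scale.

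Averaged over the ages, the cycle was lower during suckling than after weaning. In the comparison of the 6 suckling ages (18 mice) with the 4 ages after weaning (12 mice), 8 of the 9 genes were lower, against 11.7% of all genes, and Slc25a13 was higher, against 68.1%. The SE and adjusted p of this comparison rest on the spread of mice within an age, not on the spread among the ages. The suckling ages were not alike. The summed FPKM of Cps1, Otc, Ass1, Asl and Arg1 had age means of 369 to 902 from Day 1 to Day 10. This sum had means of 1494 on Day 15 and 1854 on Day 20, against 1155 to 1579 in the ages after weaning. On Days 15 and 20, limma called 0 of the 9 genes against Day 60. The median log2 fold change of the 9 genes was -0.67 and that of all genes 0.39 (-1.07 and 0.13 after upper quartile scaling). Ass1 differed most among the lower genes, 2.89-fold (SE 0.16 on the log2 scale, adjusted p = 1.11e-09), and 13 of its 18 suckling mice lay below every mouse after weaning; the difference was 2.73-fold with Gm5424 added (adjusted p = 1.01e-10). Arg1 was 1.97-fold lower (adjusted p = 6.44e-08), Gls2 1.94-fold (adjusted p = 6.01e-09), Asl 1.61-fold (adjusted p = 2.64e-05), Otc 1.59-fold (adjusted p = 1.93e-06), Cps1 1.52-fold (adjusted p = 0.00701), Slc25a15 1.39-fold (adjusted p = 0.0054) and Nags 1.34-fold (adjusted p = 1.86e-05).

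Slc25a13 differed from the rest in direction. It was 1.76-fold higher in the suckling ages than after weaning (log2 fold change 0.82, SE 0.11, adjusted p = 8.28e-08), and 12 of its 18 suckling mice lay above every mouse after weaning. Against Day 60 (32.8, 39.2 and 28.4 FPKM) it was higher at Day 1 (2.04-fold, adjusted p = 0.000393), Day 3 (1.47-fold, adjusted p = 0.0409) and Day 5 (58.9, 56.8 and 65.9 FPKM, 1.79-fold, adjusted p = 0.0027). All 3 mice of each of these ages lay above all 3 of Day 60, but 53.4%, 55.7% and 56.9% of all genes were higher at those ages too. With upper quartile scaling the difference was 0.56 on the log2 scale at Day 1 (adjusted p = 0.0218), -0.06 at Day 3 (adjusted p = 0.84), 0.23 at Day 5 (adjusted p = 0.373) and 0.42 for suckling against after weaning (adjusted p = 0.000253). The call at Day 3 was also lost without any 1 of Day 3 replicates 1, 2 and 3 and Day 60 replicates 1 and 3 (0.45 to 0.59, adjusted p 0.0592 to 0.146).

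Between the early ages and Day 60, the remaining genes stayed lower to differing ages. Cps1, Otc, Ass1 and Gls2 were lower than Day 60 at each of the 6 ages from GD17.5 to Day 10, Arg1 and Asl at those ages other than Day 1, Slc25a15 at those other than Day 5, and Nags at the first 4. On Days 0, 1, 3, 5 and 10 the numbers of genes lower were 8, 6, 8, 6 and 7, against 20.3%, 11.7%, 10.3%, 8.5% and 10.6% of all genes, and after upper quartile scaling they were 9, 8, 8, 8 and 7. Several of these calls turned on 1 library. Cps1 at Day 1 (-0.99, adjusted p = 0.0464) was lost with the replicate block (0.0518) and without any 1 of Day 1 replicates 2 and 3 and Day 60 replicates 1, 2 and 3 (-1.05 to -0.67, adjusted p 0.0666 to 0.226), Otc at Day 10 (-0.62, adjusted p = 0.0306) without Day 10 replicates 2 or 3 or Day 60 replicates 1 or 2 (-0.64 to -0.41, adjusted p 0.0504 to 0.201), and Slc25a15 at Day 10 (-0.81, adjusted p = 0.0429) without Day 10 replicates 2 or 3 or Day 60 replicates 2 or 3 (-0.83 to -0.62, adjusted p 0.0768 to 0.181). Arg1 at Day 1 (-0.58, adjusted p = 0.0715) was gained without Day 1 replicate 3 (-0.80, adjusted p = 0.0234) or Day 60 replicate 1 (-0.77, adjusted p = 0.0314).

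The levels were set against the hepatocyte markers measured in the same mice. The 5-enzyme sum was 1.12 ± 0.0869% of the hepatocyte marker sum in the fetuses and 0.824 ± 0.178% in the newborns (SD, n = 3), and all 3 newborns (0.698 to 1.03%) lay below all 3 fetuses (1.06 to 1.22%). It was then 1.61 ± 0.558% on Day 1, 0.517 ± 0.0482% on Day 3, 0.518 ± 0.00774% on Day 10, 1.46 ± 0.296% on Day 15 and 2.7 ± 0.43% on Day 60. The dip at Day 3, the climb from Day 10 to Day 15 and lower values at GD17.5 than at Day 60 were also seen on this scale. The rise at birth was not. The fetal mean also lay above those of Day 3, Day 5 (0.707 ± 0.217%) and Day 10, so GD17.5 was not the lowest age here. This sum leaves out Gm5424, and the markers themselves changed with age. Alb, Ahsg and Serpina1b rose more at birth than Ttr and Apoa2. Ahsg was 3043, 2456 and 3856 FPKM in the fetuses, 27179, 26008 and 27022 at Day 0 and 4975, 5342 and 7037 at Day 60. Ttr was 1720, 1574 and 1815 FPKM in the fetuses and 3237, 3724 and 4337 FPKM at Day 0. These percentages therefore depend on the markers chosen, and the part of the markers in the changes was not tested.

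Forms of the carriers and of arginase that other tissues use were low at Day 60. Slc25a12, the aspartate carrier of brain and muscle, fell from 8.74 ± 0.375 FPKM in the fetuses to 3.14 ± 0.497 FPKM in the mice of Day 60 (a difference of 1.24 on the log2(FPKM + 1) scale, adjusted p = 5.98e-08). Of the list of 3 such forms it was the only 1 tested, and 56.4% of all genes were higher at GD17.5 as it was. Arg2, mitochondrial arginase, had age means of at most 0.46 FPKM and Slc25a2, another ornithine carrier, of at most 0.0525 FPKM, under the filter. Slc25a12 did not pass the test at birth or from Day 10 to Day 15, and was higher in the suckling ages than after weaning (0.68).

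The liver carrier gained on the other form at birth and again by Day 1. The ratio of Slc25a13 to Slc25a12 was 1.67 ± 0.142 in the fetuses, 4.37 ± 0.907 at Day 0 and 8.54 ± 1.12 on Day 1. It was 6.24 ± 1.03 on Day 25 and 11 ± 3.09 on Day 60 (SD, n = 3). GD17.5 did not overlap any of these later ages. Gls2 drew level with Glul, the glutamine synthetase that works against it, by Day 20 but did not stay level at every later age. Their ratio was 0.149 ± 0.0206 in the fetuses, 0.256 ± 0.0951 on Day 5, 0.66 ± 0.134 on Day 10 and 1 ± 0.0519 on Day 20. It was 0.978 ± 0.0998 on Day 25, 0.635 ± 0.0994 on Day 30 and 0.862 ± 0.0862 on Day 45. At Day 60 the mice had ratios of 0.629, 0.707 and 3.83, the last in Day 60 replicate 3, which was highest of the 3 in Gls2 and lowest in Glul (58.8 FPKM against 153 and 165).

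**Figure D4:**
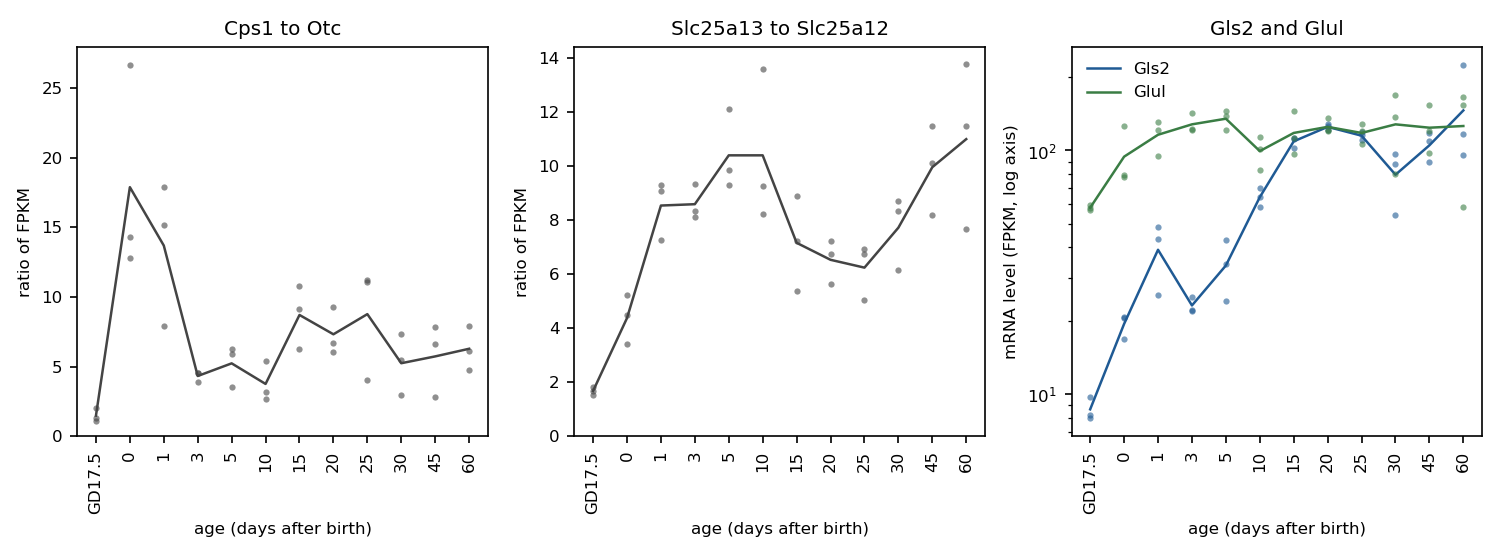
Ratio of Cps1 to Otc FPKM (left, linear axis from 0), ratio of the liver carrier Slc25a13 to Slc25a12 (middle, linear axis from 0) and levels of Gls2 and Glul (right, FPKM on a log axis) against age; points are the 3 mice of an age and lines their mean. The Cps1 to Otc ratio peaks at Day 0, and the Slc25a13 to Slc25a12 ratio is lowest at GD17.5, at a mean of 1.67.

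Genes that feed the cycle with ammonia, aspartate and bicarbonate were lower in the fetus too. Of 12 genes, 9 were lower and 1 higher at GD17.5 than at Day 60, against 18.6% and 56.4% of all genes, with a median log2 fold change of -1.48 against 0.56 for all genes (11 lower and 0 higher after upper quartile scaling). The largest differences were those of the alanine transaminase Gpt (-5.67, adjusted p = 8.58e-18) and the cytosolic aspartate transaminase Got1 (-2.69, adjusted p = 0.000131), and Mdh2, mitochondrial malate dehydrogenase, was higher (0.75, adjusted p = 0.000116). At birth 4 of the 12 rose (13.1% of all genes), among them Got1 (2.25, adjusted p = 0.00184) and the deacetylase Sirt3 (1.14, adjusted p = 2.11e-06), and none fell. From Day 10 to Day 15, 3 rose (1.52% of all genes), led by Gpt (3.57, adjusted p = 7.25e-11) and Gpt2 (0.83, adjusted p = 0.00533). In the suckling ages 4 were lower than after weaning and 5 higher (11.7% and 68.1% of all genes). After upper quartile scaling these were 7 and 1. Scaling took the genes called in this comparison from 8886 to 7932 and the median of all genes from 0.39 to 0.13. The counts after scaling therefore cannot be set against those shares, for this list or those below.

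Genes of amino acid breakdown were mostly lower in the fetus as well. Of 13 genes, 12 were lower and none higher at GD17.5 than at Day 60 (18.6% and 56.4% of all genes; median -2.17), with serine dehydratase Sds (-5.73, adjusted p = 8.69e-09) and histidine ammonia-lyase Hal (-4.74, adjusted p = 5.8e-17) the most changed. At birth 5 rose, led by Sds (3.01, adjusted p = 0.000456) and Hal (1.42, adjusted p = 1.37e-05), and 2 fell (13.1% and 41.4% of all genes), or 8 and 0 after upper quartile scaling. From Day 10 to Day 15, 3 rose (1.52% of all genes), led by the proline dehydrogenase Prodh (2.77, adjusted p = 5.69e-08) and Hal (1.34, adjusted p = 0.000195). In the suckling ages 6 were lower and 2 higher than after weaning (11.7% and 68.1% of all genes), or 11 and 1 after upper quartile scaling.

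Of 10 amino acid transporters, 6 were higher and 3 lower at GD17.5 than at Day 60, a share of higher genes near the 56.4% of all genes (18.6% were lower; median 2.12, or 1.59 after upper quartile scaling). Slc38a5 (5.23, adjusted p = 6.1e-14) and Slc43a1 (5.15, adjusted p = 5.04e-20) led the higher genes, and the glutamine carrier Slc38a3 (-2.91, adjusted p = 3.17e-13) and Slc38a4 (-2.90, adjusted p = 4.36e-11) the lower ones. At birth 3 rose, Slc38a3 (1.52, adjusted p = 8.97e-07) most, and 5 fell (13.1% and 41.4% of all genes). From Day 10 to Day 15, 1 fell (10.5% of all genes) and none rose, and in the suckling ages 7 were higher and 2 lower than after weaning, near the 68.1% and 11.7% of all genes, or 5 and 3 after upper quartile scaling.

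Glul, glutamine synthetase, was 58.2 ± 1.58 FPKM in the fetuses, lower than at Day 60 (-0.96, adjusted p = 0.00253), and did not pass the test between suckling ages and ages after weaning (fold change 0.999, SE 0.13 on the log2 scale, adjusted p = 0.992). Oat, ornithine aminotransferase, which removes ornithine from the cycle, was 24.3 ± 2.84 FPKM in the fetuses, fell at birth (-0.80, adjusted p = 0.00253), stayed low to Day 10 and then rose 3.03-fold to Day 15 (adjusted p = 3.68e-06) and on to 145 ± 7.73 FPKM at Day 60. Of the list of 4 genes, which also held Rhbg and Slc1a2, 3 were lower at GD17.5 than at Day 60 and none higher (18.6% and 56.4% of all genes). At birth 1 rose and 2 fell (13.1% and 41.4% of all genes), and from Day 10 to Day 15 Oat and Slc1a2 rose (1.52% of all genes). In the suckling ages 2 were lower and 1 higher than after weaning (11.7% and 68.1% of all genes), or 3 and 0 after upper quartile scaling.

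Transcription factors and receptors linked to these genes were mostly lower in the fetus. Of 10 tested of 11, 8 were lower and 1 higher at GD17.5 than at Day 60 (18.6% and 56.4% of all genes; median -1.16). The glucagon receptor Gcgr (-3.22, adjusted p = 2.13e-15) and Klf15 (-1.58, adjusted p = 4.01e-09) differed most, and Creb1 was higher (0.78, adjusted p = 0.00016). At birth 6 rose (13.1% of all genes), led by Gcgr (1.32, adjusted p = 1.39e-06) and Cebpa (0.95, adjusted p = 0.00941), and Creb1 fell (-0.67, adjusted p = 0.00172). From Day 10 to Day 15, Klf15 alone rose (0.69, adjusted p = 0.00829; 1.52% of all genes). In the suckling ages 2 were lower and 1 higher than after weaning (11.7% and 68.1% of all genes), or 7 and 1 after upper quartile scaling.

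The mice of an age varied widely in Cps1 after weaning. Its level was 588, 170 and 579 FPKM at Day 25, 104, 367 and 336 FPKM at Day 30 and 419, 495 and 148 FPKM at Day 45, so 1 mouse of each age had at most 170 FPKM while the others had at least 336. These mice, picked out after their values were seen, were the lowest of the 3 in 5, 6 and 6 of the 9 genes, with median deviations from the age mean of -0.08, -0.42 and -0.22 on the log2 scale, but were not low in every gene. Day 25 replicate 2 was the highest of its age in Ass1 (188 FPKM) and Asl (602 FPKM), Day 30 replicate 1 in the same genes (98.2 and 416 FPKM), and Day 45 replicate 3 was the highest in Ass1 (106 FPKM). Slc25a13 was lowest of its age in the same mice (17.1, 14.5 and 18.5 FPKM), as were Slc25a15 and Otc. The longest coding transcripts of Cps1, Slc25a15, Slc25a13 and Otc have 5555, 3451, 3121 and 2997 bases, and that of Ass1 has 1696. Arg1, with 1476 bases, was also lowest in Day 25 replicate 2 and Day 45 replicate 3. The part of transcript length or of the library in this spread was not tested. At Day 60, replicate 3 was the highest in 7 of the 9 genes.

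**Figure D5:**
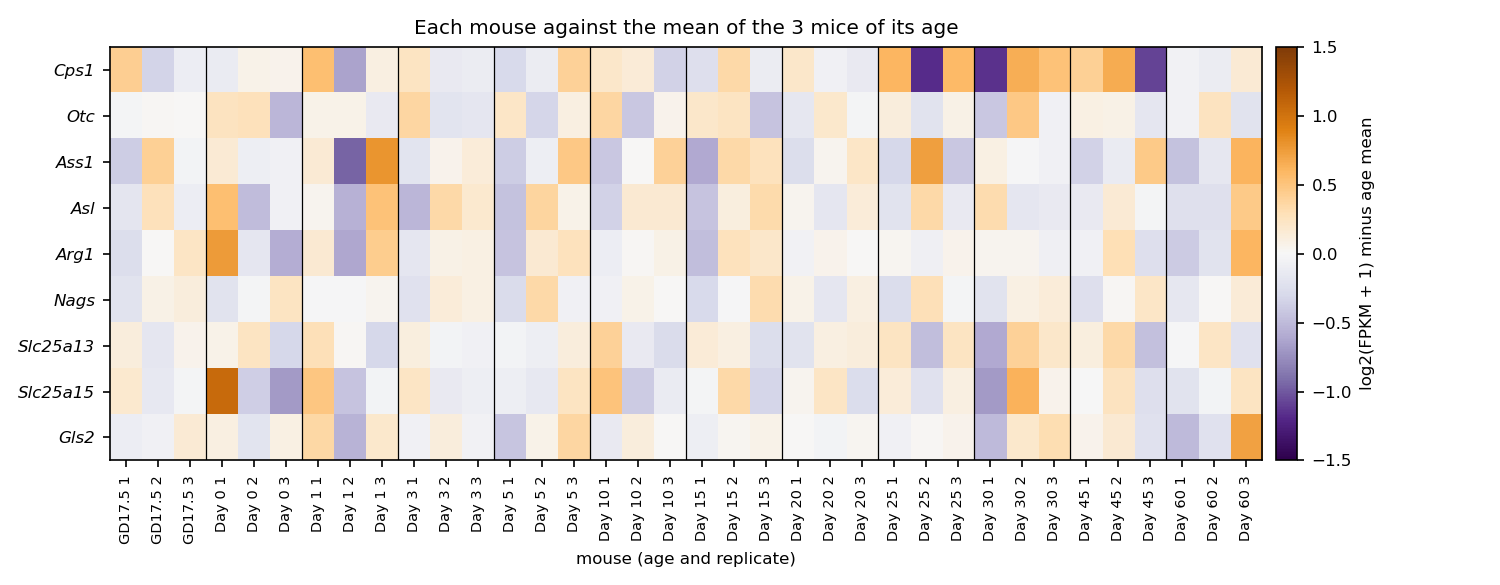
Log2(FPKM + 1) of each of the 36 mice minus the mean of the 3 mice of its age, for each of the 9 genes (orange above and purple below the age mean; black lines part the ages). The darkest purple cells are Cps1 in Day 25 replicate 2, Day 30 replicate 1 and Day 45 replicate 3.

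Over the 12 age means, the genes were set against each other and against 4770 other genes whose mean reached 10 FPKM at some age. These correlations describe 12 points that share their libraries, and carry no test. Cps1 ran closest to Asl (Pearson r = 0.97) and Arg1 (0.96), and Otc closest to Gls2 (0.93), Slc25a15 (0.92) and Nags (0.91). Slc25a13 had r between -0.23 and 0.23 with the other 8 genes. Outside the 9 genes, the courses most like each were those of Upp2 for Cps1 (0.969), Pls3 for Otc (0.978), Gm5424 for Ass1 (0.994), Hspb8 for Asl (0.972), Ahcy for Arg1 (0.959), Tlcd2 for Nags (0.975), Tmem30b for Slc25a13 (0.960), Kmo for Slc25a15 (0.985) and Uroc1 for Gls2 (0.983). Gm5424 is the near-identical copy of Ass1, so its value is not independent of how reads were divided. The next gene for Ass1 was Ahcy (0.969).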

How the data were processed

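Per the study's methods, poly(A) RNA of each liver was sequenced as paired reads of 100 bases, mapped to the NCBI37/mm9 genome with TopHat and summed per gene by the authors with Cufflinks against the Ensembl annotation; the submitters' processing notes name TopHat 1.2.0 and Cufflinks 1.0.3. The deposited values are FPKM per gene symbol for 36 livers, with no replicates pooled. They sum to 353712 to 450597 per library. From the steps between the lowest values, a library was estimated at 8.27e+07 fragments (relative depth 0.9 to 1.1), which puts at least 1.04e+03 fragments behind any value of the 9 genes, so counting error is small. Replicates of an age had a Pearson r of at least 0.952 (median 0.978), and no library repeated another.

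The 11149 genes whose mean reached 1 FPKM at some age were tested on log2(FPKM + 1) with limma 3.58.1 in R 4.3.3, with 1 mean per age over all 36 mice, moderated variances with a trend and Benjamini-Hochberg adjustment over all genes (threshold 0.05). Fold changes are on the log2(FPKM + 1) scale, which understates changes of low genes. The 9 genes are named throughout, other genes only as the most changed of their list. The 9 genes, the lists and the tests were chosen with earlier results of these data known, and 1 gene of the lists is not reported here. Coding sequences were searched against mm9 with BLASTN 2.17.0. The fit was tested on simulated data. Alternatives were another pseudocount (0.1), no filter or one at 5 FPKM, upper quartile and TPM scaling, a replicate block, no variance trend, Dunnett's comparison and leaving out each mouse. Chosen after seeing the data were the removal of length and GC trends, leaving out the libraries with kidney or muscle RNA or with most pancreas RNA (summed markers above 4000 FPKM), and adding Gm5424 to Ass1.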

Additional observations from a re-analysis of the deposited data

How the results depend on the processing

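With each mouse left out in turn, the number of the 9 genes that differed from Day 60 stayed at 9, the gene and age pairs called ran from 44 to 48 (47 with all mice), the gene and step pairs from 19 to 27 (24), the genes called at birth from 6 to 7, from Day 0 to Day 1 from 4 to 6, and for suckling against after weaning stayed at 9. The genes called between Days 20 and 25 ran from 0 to 1; that count was 1 in the report and 0 with no filter, with TPM scaling and without the 5 libraries with most pancreas RNA. Its other alternatives left it at 1, and the 6 other counts named in this paragraph stayed within 1.5 times their values. The genes that fell from Day 1 to Day 3 were 3, or 5 with upper quartile scaling. The lowest were 18 gene and step pairs and 4 genes from Day 0 to Day 1 without the pancreas libraries, and 44 gene and age pairs by Dunnett's comparison.

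Same-numbered mice are different animals. Over 198 same-numbered pairs, the deviations from the age means had a median r of 0.126, from -0.68 to 0.829, with 104 pairs above 0.1. For mice of other numbers the median was -0.0476. The main fit did not use the numbers to pair the mice. Whether some same-numbered libraries shared their handling was not tested. With the replicate block the counts were 9 genes against Day 60, 48 gene and age pairs, 25 gene and step pairs, 7 at birth, 6 from Day 0 to Day 1, 1 between Days 20 and 25, and 9 for suckling against after weaning.

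Of 693 fold changes of single genes recomputed under the alternatives other than leaving out a mouse, 655 kept their direction and side of the threshold, 16 lost and 11 gained a call and 11 reversed; with a mouse left out, 552 of 594 kept both and 14 reversed. These fold changes covered GD17.5 against Day 60, the steps at birth and to Days 1, 3, 15 and 25, and suckling against after weaning. Those of them that reversed were small and uncalled, and the cause was not tested. Among the comparisons not covered, Slc25a13 at Day 3 against Day 60 (0.56, limma adjusted p = 0.0409) became -0.06 with upper quartile scaling. At birth Nags (0.04) became -0.23 with the length and GC trend removed and -0.08 without the pancreas libraries, and Slc25a15 (-0.05) became 0.19 with upper quartile scaling, 0.09 with the trend removed and 0.29 without the pancreas libraries. Upper quartile scaling also gave Ass1 -0.05 and Nags -0.01 from Day 0 to Day 1, Nags -0.10 from Day 1 to Day 3 (-0.08 with TPM scaling) and Slc25a13 0.07 from Day 10 to Day 15 (0.03 without the pancreas libraries). With a mouse left out, the values of the genes with a reversal ran from -0.08 to 0.14 (Nags) and -0.58 to 0.29 (Slc25a15) at birth, from -0.30 to 0.57 for Ass1 from Day 0 to Day 1, from -0.03 to 0.14 for Nags from Day 1 to Day 3, from -0.22 to 0.11 for Slc25a13 from Day 10 to Day 15, and from Day 20 to Day 25 from -0.17 to 0.40 for Ass1 and up to 0.05 for Asl. Upper quartile scaling moved 55 of the 108 gene levels by more than 1 SD. Each value of the 9 genes rests on an estimated 1.04e+03 fragments or more, so counting error was small. For Ass1 this estimate depends on the unknown division of reads with Gm5424.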
